A study of Mus musculus with 2 samples.

Results

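Guanylate-binding proteins (GBPs) are large GTPases of the dynamin superfamily that cells make in response to interferons. They gather on the membranes of vacuoles and bacteria inside a cell, help to break these membranes open, and pass microbial products to inflammasomes, which activate inflammatory caspases. Their transcription depends on STAT and IRF factors downstream of the interferon receptors, and type II interferon is their best known inducer. In the mouse the genes lie in a cluster on chromosome 3 and another on chromosome 5. All rows named Gbp2 to Gbp11 in the deposited tables were taken by gene symbol, which gave 10 of 26082 genes, and Gbp2b was not analysed here.

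The RNA came from primary fibro-adipogenic progenitors (FAPs), mesenchymal cells of muscle from which adipocytes can form. FAPs of WT genotype had received either plasmids meant to overexpress TGFBR3, a co-receptor for TGF-β ligands, or the vector alone, and each condition had 1 library. Both cultures are labelled as under adipogenic differentiation, for which the medium contained insulin at 10 μg/ml, dexamethasone at 0.25 μM, IBMX at 0.5 mM and FBS at 20%. The cells were sorted from digested hind limb muscle, and the study used C57BL/6 mice 6–8 weeks old. Neither the number of animals behind a library nor the time in the medium is given in the labels.

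Tgfbr3 itself stood at an FPKM of 36.9 (16372 counts) in the library labelled TGFBR3 overexpression, here the OE-labelled library, and of 35.1 (21245 counts) in the library labelled vector control, here the control-labelled library. FPKM is the count of a gene divided by its length and by a library total, so it allows levels of different genes to be compared. The log2 ratio of (FPKM + 1) was 0.07 (95% CI 0.04 to 0.10) for Tgfbr3, below the median of 0.13 over 10626 genes at an FPKM of 1 or more in each library. The targeted transcript therefore did not distinguish the libraries as their labels would, and the libraries are named by their labels only. Real-time PCR of TGFBR3 in transfected FAPs is also part of the paper, without values in its text. The counts summed to 62321027 and 83779203. Since each condition had 1 library, no difference could be set against a spread between replicates, and no p-value was computed. Intervals (95% CI, exact Clopper-Pearson) hold counting error alone and describe a pair of libraries, not of conditions.

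The promoters show what the members on chromosome 3 have in common ahead of any expression value. RefSeq promoter sequences on GRCm38.p6 were at hand for 4 of the 10 genes, namely Gbp2, Gbp3, Gbp5 and Gbp7, and each covers 250 bases before the transcription start and 50 bases after it. They were searched on both strands for the core of the interferon-stimulated response element, written here as TTTC followed, 2 bases later, by TTTC, which interferon regulatory factors are known to bind. The matching bases are in capitals, and all windows lie on the plus strand.
Gbp2 (chr3:142620579-142620638): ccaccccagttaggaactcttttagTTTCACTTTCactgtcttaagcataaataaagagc
Gbp3 (chr3:142559974-142560039): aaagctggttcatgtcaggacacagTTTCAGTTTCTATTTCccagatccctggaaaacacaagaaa
Gbp5 (chr3:142496744-142496803): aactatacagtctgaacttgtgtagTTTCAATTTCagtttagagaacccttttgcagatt
Gbp7 (chr3:142530258-142530317): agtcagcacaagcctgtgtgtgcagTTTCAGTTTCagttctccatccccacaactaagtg
All 4 promoters held the motif, which was present in 3.44% of the 32851 mouse promoters of the same length. The first base of the match lay 59 bases before the RefSeq start in Gbp2, 45 in Gbp3, 53 in Gbp7 and 165 in Gbp5. The RefSeq starts of Gbp2, Gbp3 and Gbp5 lie inside the GENCODE gene models, and so do the matches of Gbp2 and Gbp5. In Gbp3 a second match overlapped the first by sharing its last TTTC. A further motif, TTCNNNGAA, was found 2 times each in the promoters of Gbp5 and Gbp7 and was present in 8.30% of all promoters. Both motifs together were present in 0.454% of them. A match is a description of letters and does not show that a factor was bound.

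The ends of the coding sequences separate the members by how their proteins can reach membranes. A protein whose residue 4 places from the end is the cysteine of a CaaX box can receive a lipid anchor, and Gbp2 and Gbp5 are known to be anchored in this way. The last 24 coding bases of the chromosome 3 members, from GENCODE M21 transcripts, are shown without the stop codon, with the cysteine codon in capitals where it is codon 4 counted from the end.
Gbp2: tcgtctgggaagTGCactatactc
Gbp5: catcatcatgacTGTgttataagc
Gbp3: aaattcctcggctcactaagtagt
Gbp7: aattcagacaaagttagaaaactc
Such a codon was present in 2 of the 10 members, Gbp2 and Gbp5. The P-loop of the GTPase domain, which holds the phosphates of GTP, was encoded in all 10. Identity of aligned coding bases, gaps left out, ran from 65.6% (Gbp2 and Gbp7) to 78.9% (Gbp3 and Gbp7) within chromosome 3 and from 89.9% (Gbp4 and Gbp9) to 98.4% (Gbp6 and Gbp10) within chromosome 5. Gbp11 is annotated as a polymorphic pseudogene, and its coding sequence held an internal stop.

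Every member had a higher FPKM in the OE-labelled library than in the control-labelled library. With 1 added to each FPKM, 8 of the 10 were at least 2-fold higher and none was lower, while 1.41% of all 26082 genes were at least 2-fold higher and 0.475% were at least 2-fold lower. The median log2 ratio of the 10 was 2.32, against 0.14 over 11213 genes whose mean FPKM was 1 or more. Summed over the family, FPKM was 361.2 against 48.7, a log2 ratio of 2.86 (95% CI 2.84 to 2.89). As a share of all counts, scaled to CPM, the family took 1226 against 157.5. In bulk RNA, a larger number of expressing cells and more RNA per cell cannot be told apart.

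**Figure D1:**
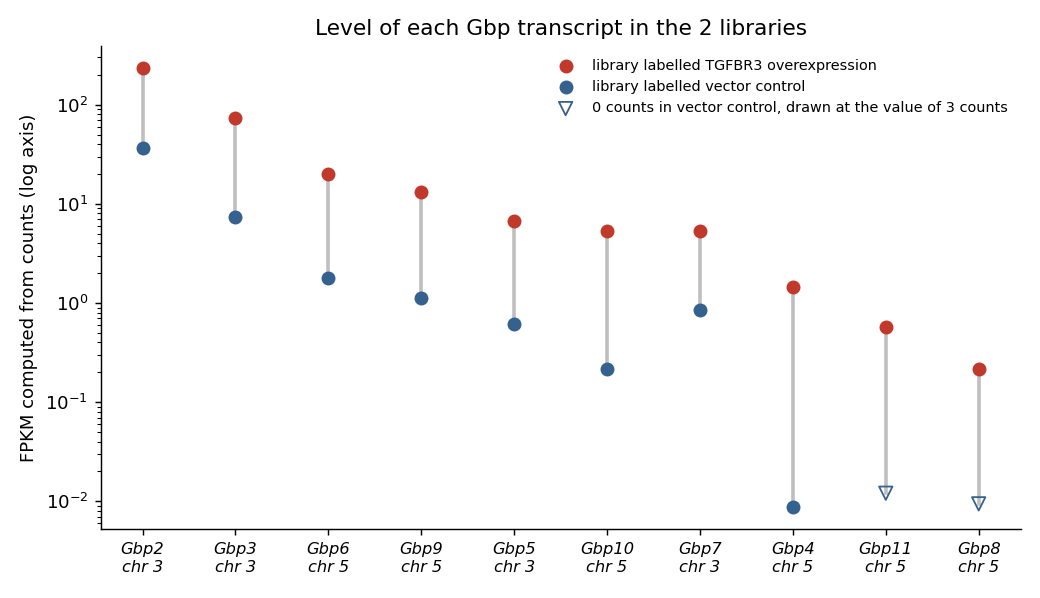
FPKM computed from the counts of each of the 10 Gbp genes (log axis), ordered by level, in the OE-labelled library (red) and the control-labelled library (blue). Each gene is higher in the first library, and Gbp8 and Gbp11, at 0 counts in the second, are drawn as open triangles at the value of 3 counts.

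The chromosome 3 cluster spans 144.0 kb of mm10 (chr3:142493978-142638008), with its 4 members on the plus strand, and held most of the family's RNA. Gbp2 (ENSMUSG00000028270, chr3:142620602-142638008), a prenylated member that coats the vacuoles of Toxoplasma, had the highest level in both libraries. The FPKM of Gbp2 was 235 (40112 counts) in the OE-labelled library and 36.7 (8539 counts) in the control-labelled library. This gave a log2 ratio of 2.65 (95% CI 2.61 to 2.68). Gbp3 (ENSMUSG00000028268, chr3:142560026-142573209) stood at an FPKM of 73.6 against 7.43, or 16296 counts against 2245. Its log2 ratio of 3.14 (95% CI 3.09 to 3.20) was the highest of the family and ranked 26 among those 11213 genes. Gbp2 ranked 49 on this list, so that the 2 most abundant members were both near its top.

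Gbp5 (ENSMUSG00000105504, chr3:142493978-142522344), the other member with a CaaX cysteine codon and one known to promote assembly of the NLRP3 inflammasome, was much less abundant. Its FPKM was 6.74 against 0.62, or 3037 counts against 380, with a log2 ratio of 2.26 (95% CI 2.19 to 2.32). Gbp7 (ENSMUSG00000040253, chr3:142530342-142550149), which is known to act with the NADPH oxidase and the autophagy machinery, stood at an FPKM of 5.30 against 0.84, or 2021 counts against 436. With a log2 ratio of 1.78 (95% CI 1.70 to 1.85) it was the lowest of this cluster. Gbp5 and Gbp7 were thus below an FPKM of 1 in the control-labelled library and above 5 in the other. Which of the prenylated pair differed more depended on the scale. Gbp2 had the higher log2 ratio with the added 1, whereas in scaled counts, without it, Gbp2 was 6.40-fold higher and Gbp5 10.9-fold higher, and on neither scale did their intervals overlap.

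The chromosome 5 cluster spans 332.3 kb (chr5:105014150-105346472), with its 6 members on the minus strand. Gbp6 (ENSMUSG00000104713, chr5:105270702-105293698) was its most abundant member, at an FPKM of 19.9 against 1.77, from 8044 and 975 counts. The log2 ratio of Gbp6 was 2.92 (95% CI 2.85 to 2.98). Gbp9 (ENSMUSG00000029298, chr5:105077630-105139539) stood at an FPKM of 13.1 against 1.12 (4605 and 536 counts), with a log2 ratio of 2.74 (95% CI 2.66 to 2.81). Only these 2 members of the cluster exceeded an FPKM of 1 in the control-labelled library.

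Gbp10 (ENSMUSG00000105096, chr5:105215699-105239533) had 1402 counts against 78, or FPKM 5.33 against 0.22, with a log2 ratio of 2.38 (95% CI 2.30 to 2.45). Gbp4 (ENSMUSG00000079363, chr5:105115767-105139586) was nearly missing from the control-labelled library, with 745 counts against 6, or FPKM 1.46 against 0.01. With the added 1, this was a log2 ratio of 1.28 (95% CI 1.27 to 1.30), a scale that understates the change of such a low gene. Once the trend of ratios over exon GC content was taken out, Gbp4 was at 0.90, short of 2-fold. Gbp11 (ENSMUSG00000092021, chr5:105323042-105346472) had 105 counts against 0, and Gbp8 (ENSMUSG00000034438, chr5:105014150-105139540) had 51 against 0. Both stayed under an FPKM of 1 in either library, and with the added 1 their log2 ratios were 0.65 and 0.28. For Gbp8 the value was −0.068 once the GC trend was taken out, so its direction on this scale is not settled.

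Without the added 1, the order of the members changed. Scaled counts of Gbp4 were 169-fold higher (95% CI 77.3 to 462), an interval whose width comes from the 6 counts in the control-labelled library. Gbp10 followed at 24.5-fold (95% CI 19.5 to 31.2), apart from Gbp4 above it and from Gbp9 below it. Gbp9 (11.7-fold), Gbp6 (11.2-fold), Gbp5 (10.9-fold) and Gbp3 (9.89-fold) formed a run in which each overlapped its neighbour within counting error. Gbp2 (6.40-fold, 95% CI 6.25 to 6.55) and Gbp7 (6.31-fold, 95% CI 5.69 to 7.02) were lowest, could not be told from each other, and lay apart from Gbp3. Against the value of 3 counts in the control-labelled library, Gbp11 was at least 47.7-fold higher and Gbp8 at least 23.2-fold higher. These 4 members with the least RNA in the control-labelled library, Gbp4, Gbp8, Gbp10 and Gbp11, had the highest folds or bounds, and all lie on chromosome 5. A fold is divided by the level in the control-labelled library, so this order is partly built into the ratio. It is not read as a trait of low members or of chromosome 5.

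The 8 members with more than 3 counts in both libraries were all at least 5-fold higher on this scale. Among the 17985 genes with more than 3 counts in both, 13.4% were at least 2-fold higher and 1.78% at least 5-fold higher. The median fold over the 10 members, with Gbp8 and Gbp11 at their bounds, was 11.5.

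**Figure D2:**
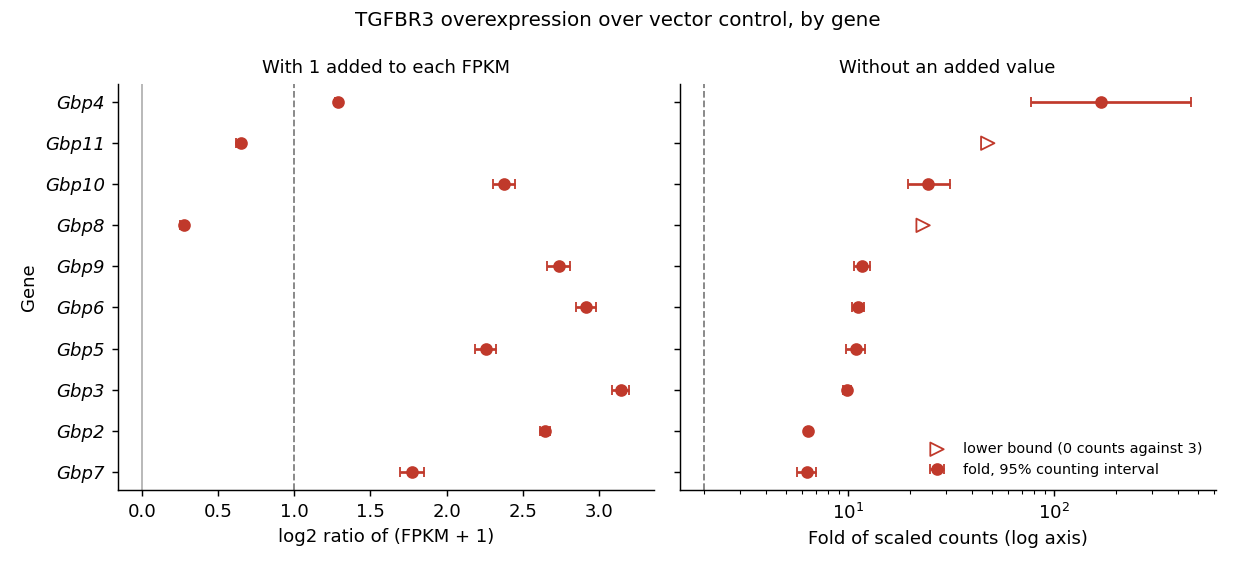
Ratio of each Gbp gene, OE-labelled library over control-labelled library, as the log2 ratio of (FPKM + 1) (left) and as the fold of scaled counts on a log axis (right), with bars for 95% counting intervals, open triangles for lower bounds and dashed lines at 2-fold. Gbp4 leads on the right at 169-fold but stands at 1.28 on the left, where Gbp3 leads at 3.14.

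The make-up of the family differed between the libraries. Gbp2 made up 65.1% of the summed FPKM in the OE-labelled library and 75.4% in the control-labelled library. In counts its share was 52.5% (95% CI 52.1 to 52.8) and 64.7% (95% CI 63.9 to 65.5). Gbp3 took 20.4% and 15.2% of the summed FPKM, Gbp6 5.51% and 3.63%, and Gbp9 3.63% and 2.30%. The share of Gbp2 was therefore smaller, and those of the next 3 members larger, in the library where all were higher. Such shares within a library do not depend on the scaling between libraries. Without Gbp2 the summed FPKM of the other 9 was 126.2 against 12.01, or 10.5-fold higher, compared with 7.41-fold for all 10.

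**Figure D3:**
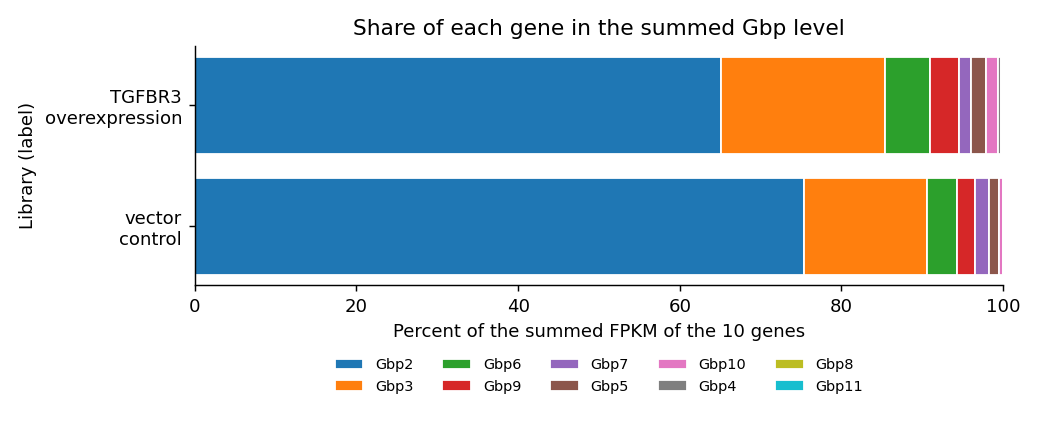
Percent of the summed FPKM of the 10 genes that each contributed in the OE-labelled library (top bar) and the control-labelled library (bottom bar). The Gbp2 segment is 65.1% of the top bar and 75.4% of the bottom bar.

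By cluster, the chromosome 3 members summed to an FPKM of 320.6 against 45.6, which was 7.03-fold higher, and the chromosome 5 members to 40.6 against 3.12, which was 13.0-fold higher. As log2 ratios of (FPKM + 1) the sums gave 2.79 (95% CI 2.76 to 2.81) and 3.34 (95% CI 3.28 to 3.39), so the sums differed by more than counting error. The median over single members ran the other way on this scale, at 2.45 on chromosome 3, with 4 of 4 members at least 2-fold higher, and 1.83 on chromosome 5, with 4 of 6. Chromosome 5 supplied 11.2% of the family's FPKM in the OE-labelled library and 6.40% in the control-labelled library. Between replicates of a condition this difference was not tested, since there are none.

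Reads of several chromosome 5 members could have been shared or left out in the counting. Of the 31-base words of Gbp10, 89.8% occur in transcripts of other genes, mainly Gbp6, and of those of Gbp6, 74.2% do, mainly in Gm43302. The share was 34.3% for Gbp11 and 31.1% for Gbp8, and it ran from 3.05% (Gbp5) to 18.3% (Gbp9) for the other members. For words of 150 bases it was 66.6% for Gbp10, 59.1% for Gbp6 and 8.77% for Gbp7. The remaining members, Gbp8, Gbp9 and Gbp11 among them, were at 0.079% or less. Where members were left out for shared words, the 31-base share was used. Gm43302, a gene model that spans both loci, covers 46.3% of the exon bases of Gbp10 and 29.0% of those of Gbp6 on the same strand. It had 1636 counts against 433, which was 5.15-fold (95% CI 4.63 to 5.73). Pooling Gbp6, Gbp10 and Gm43302 gave 11082 counts against 1486, or 10.2-fold (95% CI 9.62 to 10.7), while Gbp6 and Gbp10 without it gave 12.2-fold (95% CI 11.5 to 13.0). The separate values of Gbp6 and Gbp10 are thus uncertain, whereas their sum was higher however Gm43302 was treated. Pooling Gbp4, Gbp8, Gbp9 and Gbp11, which share none of their exon bases with Gm43302, gave 13.8-fold (95% CI 12.7 to 15.1). On chromosome 3, the pseudogene Gm43802 overlaps 11.3% of the exon bases of Gbp7 and had 2 counts against 1.

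The genes beside the clusters differed less. Of the neighbours within 200 kb with a mean FPKM of at least 1, those on chromosome 3 were Pdlim5, Gtf2b and Pkn2, with log2 ratios of 0.79, 0.67 and 0.41. On chromosome 5, apart from Gm43302 at 1.66, the neighbour was Lrrc8c, which encodes a subunit of volume-regulated anion channels, at 0.06. Gtf2b, the general transcription factor TFIIB, had FPKM values of 8.28 and 4.83. None of these neighbours other than Gm43302 was at least 2-fold higher.

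**Figure D4:**
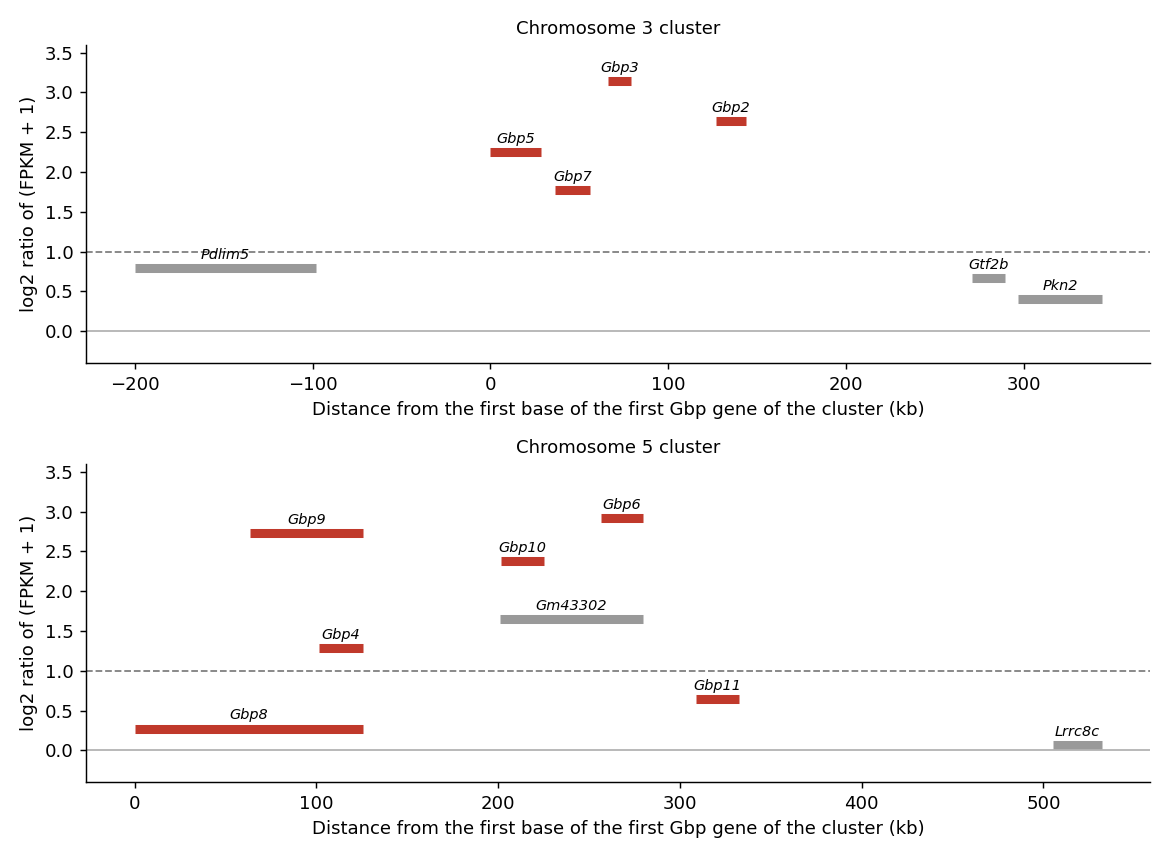
Log2 ratio of (FPKM + 1) of the Gbp genes (red) and of neighbours with a mean FPKM of at least 1 (grey), against distance in kb from the first base of each cluster, with bar length showing the gene's extent and genes drawn to at most 200 kb outside a cluster. The dashed line marks 2-fold, which 8 Gbp genes and Gm43302 exceed and Pdlim5, Gtf2b, Pkn2 and Lrrc8c do not.

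Upstream of the GBPs, transcripts of the interferons analysed were scarce, and those of the receptor subunits differed by less than 2-fold. Of 16 interferon ligands listed, 2 were analysed, of which Ifnb1, encoding interferon β, had 9 counts against 3 and Ifna4 had 0 in both. Ifng was not analysed here. The subunits of the type II receptor had FPKM values of 24.4 and 23.1 (Ifngr1) and 19.4 and 22.2 (Ifngr2). Those of the type I receptor had 11.96 and 11.7 (Ifnar1) and 26.3 and 22.5 (Ifnar2). Jak1, Jak2 and Tyk2, the kinases bound to these receptors, had log2 ratios of 0.42, 0.78 and −0.06. Stat3 (0.19) and the feedback inhibitors Socs1 (0.24) and Socs3 (−0.16) also stayed short of 2-fold.

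Stat2, a signal transducer of the type I receptor, differed more. It had an FPKM of 48.5 against 17.6, a log2 ratio of 1.41 (95% CI 1.38 to 1.44), and was at least 2-fold higher on either scale. The median of the 12 genes for receptors and JAK–STAT signaling was 0.20. Of 10 interferon regulatory factors and related regulators, 2 were at least 2-fold higher with the added 1, against 1.41% of all genes, and the median was 0.72. By scaled counts, 5 of the 9 with more than 3 counts in both libraries were, where the share over all such genes was 13.4%. Irf7, the factor that amplifies type I interferon transcription, had an FPKM of 278.7 against 20.98 and a log2 ratio of 3.67 (95% CI 3.64 to 3.70). Nlrc5, a transactivator of MHC class I genes, had a log2 ratio of 1.79. Irf9 stood at 0.97, or 2.03-fold in scaled counts, and Irf1, a known regulator of Gbp genes, at 0.71 with FPKM values of 18.0 and 10.6.

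Other interferon-inducible GTPases were higher together with the GBPs. The immunity-related GTPases, which act with GBPs at pathogen vacuoles, had 8 of 10 genes at least 2-fold higher, against 1.41% of all genes. Their median log2 ratio was 2.91. Their highest values belonged to Tgtp1 (5.46), Tgtp2 (5.00), Igtp (3.49), Iigp1 (3.14) and Gm12250 (3.02), of which Tgtp1 and Tgtp2 are close copies so that their separate values are uncertain. Mx1 (2.70), Mx2 (2.69) and Gvin1 (2.52) were all at least 2-fold higher. By contrast, the constitutive relatives of the GBPs, the atlastins and dynamins listed with the mitofusins and Opa1, had 0 of 10 genes past 2-fold on either scale. Their median was 0.08. Dnm2 had an FPKM of 32.9 in both libraries.

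For partners of the GBPs the count past 2-fold depended on the list and the scale. Over all genes, 1.41% were at least 2-fold higher with the added 1. By scaled counts, 13.4% of genes with more than 3 counts in both libraries were. Among 10 inflammasome components, Casp4, which encodes the caspase that senses bacterial lipopolysaccharide in mice, was the 1 at least 2-fold higher with the added 1, at FPKM 10.2 against 2.43, for a log2 ratio of 1.70 (95% CI 1.61 to 1.79). Casp1 stood at 0.92 (95% CI 0.80 to 1.04), and the median of the list was 0.27. Several of these genes were low, and by scaled counts 6 of the 9 with more than 3 counts in both libraries were at least 2-fold higher, Casp1 at 2.86-fold (95% CI 2.47 to 3.32) among them. On that scale 1 was at least 2-fold lower, and the share of all genes lower by scaled counts was not computed. Among 12 genes of ATG8 conjugation and its adaptors, which recruit GBPs to vacuoles, none passed 2-fold in either direction on either scale and the median was −0.07. Among 6 prenylation enzymes, which attach the lipid anchor at the CaaX box or act on the box afterwards, none did either and the median was 0.02. Nos2, the inducible nitric oxide synthase, was at an FPKM of 175.3 against 55.2 (log2 ratio 1.65, 95% CI 1.63 to 1.67), the 1 of 7 oxidative effectors that was at least 2-fold higher with the added 1. By scaled counts 2 of the 4 with more than 3 counts in both libraries were.

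**Figure D5:**
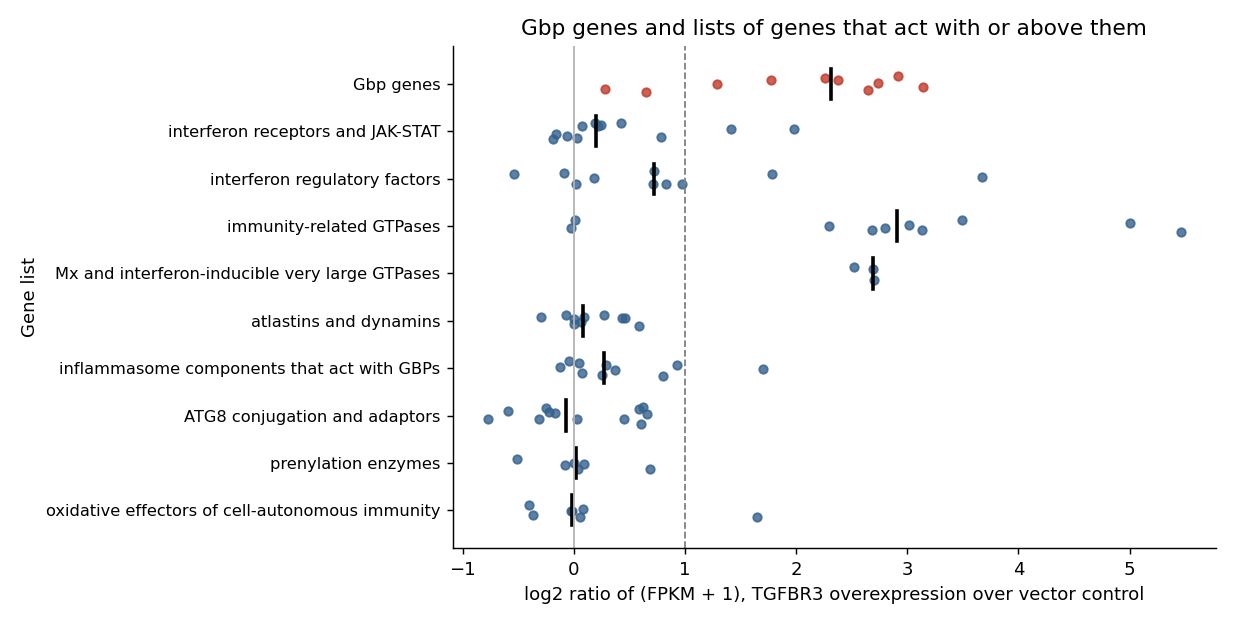
Log2 ratio of (FPKM + 1) of each Gbp gene (red) and of each gene in 9 lists (blue), with a black bar at the median of the list and a dashed line at 2-fold. The Gbp genes, the immunity-related GTPases and the Mx and Gvin1 genes have medians of 2.32, 2.91 and 2.69, and the medians of the other lists lie between −0.07 and 0.72.

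Markers of macrophages, T and NK cells, endothelial cells and muscle cells were low, whereas those of adipocytes were not. The summed FPKM of 10 macrophage markers was 0.94 against 0.54, the highest single value was 0.46, in Csf1r, and Adgre1, Tyrobp and Fcer1g were at 0 in both libraries. Ptprc, which marks all leukocytes, had 0 counts against 4. Of 10 T and NK cell markers 3 were analysed, and all had 0 counts in both. The summed FPKM of 6 endothelial markers was 2.40 and 2.03, and that of the muscle cell markers analysed was 1.65 and 1.30. By scaled counts, 2 of the 3 macrophage markers and 2 of the 4 endothelial markers with more than 3 counts in both libraries were at least 2-fold higher. Over all such genes the share was 13.4%. The part of these cells in the GBP values was not tested. Of 10 FAP markers, 1 was at least 2-fold lower, Col3a1 (−1.05), and Pdgfra, their defining receptor, had FPKM values of 30.5 and 32.6. The median of this list was −0.08, and 4 of the 10 were above 0, among them Ly6a (0.52). By scaled counts, 1 of the 9 FAP markers with more than 3 counts in both libraries was at least 2-fold higher, against 13.4% of all such genes. On the same scale 2 were at least 2-fold lower. The summed FPKM of the 9 adipocyte markers analysed was 58.25 in the OE-labelled library and 95.98 in the control-labelled library. Among these markers, Cfd (−1.29) and Adipoq (−1.07) were at least 2-fold lower in the OE-labelled library, where 0.475% of all genes were. Their median was −0.47, and 2 of the 9 were above 0, among them Pparg (0.29). By scaled counts, 3 of the 9 were at least 2-fold lower and 0 higher. The share of all genes at least 2-fold lower on this scale was not computed. The counts of lower FAP and adipocyte markers on it are therefore not read as a result. The part of the adipocyte marker differences in the GBP values was not tested. The median of 8 reference genes was 0.0029, but they were spread in both directions. Of the 8, 4 were above 0, and Ppia stood at −0.41 and Hprt at 0.76.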

How the data were processed

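RNA of 2 FAP cultures was sequenced, with 1 library per condition. The authors deposited raw counts per gene and FPKM values rounded to hundredths. The methods of the paper name a stranded kit, STAR and FeatureCounts with mm10, whereas the submitters' processing notes list cutadapt (1.9), HISAT2 (2.2.1), StringTie (2.1.6), DESeq2 and edgeR, so the aligner behind the tables is unclear. The annotation release and the strand setting are not given in the sources used here. The FPKM values follow the counts divided by exon length and by totals of 67868757 and 92424343, within 1% for 98.7% and 98.8% of genes with an FPKM of at least 5, and these totals exceed the summed counts.

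Libraries were compared by the log2 ratio of (FPKM + 1), with the OE-labelled library over the control-labelled one. A log2 ratio of at least 1, or −1 or less, was called 2-fold. Folds of scaled counts used the totals above, and a count of 3 was the floor for bounds. Exact Clopper-Pearson intervals (scipy 1.17.1) cover the sampling of reads, which narrows with depth. Whether molecular identifiers were used is not given in the sources used here, and without them reads are not independent molecules. Count models were not run, since 1 library per condition leaves no spread to estimate. TMM factors (edgeR 4.0.16) and size factors (DESeq2 1.42.0) served only as other scalings. The calculations were tested on simulated data. Exon lengths, GC content, overlaps, shared words and coding sequences came from GENCODE M21, which holds 99.7% of the identifiers, and promoters from RefSeq on GRCm38.p6. Coding bases were compared in place of proteins.

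The members and the 17 lists, written from general knowledge, were chosen with earlier results of these data known. All 10 members were named, with at most 5 genes of a list by size of ratio at a mean FPKM of at least 1, every interferon ligand and receptor or JAK–STAT gene, neighbours with a mean FPKM of at least 1, and the 3 genes nearest in ratio to each of the 3 most abundant members. Marker genes below that level, Gm43802, Dnm2 and Pdgfra were named beside these for their roles or overlaps, after their values were seen. Alternatives were other pseudocounts, filters, scalings, thresholds, the removal of trends over GC content and exon length in 20 bins, and the exclusion of members. The value of 1 gene in the list of reference genes and of 1 in the list of receptors and JAK–STAT signaling is not reported here.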

Additional observations from a re-analysis of the deposited data

How the results depend on the processing

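The direction of the family did not depend on any setting tried, while its size did. Of 88 values of single members under the alternatives, 87 were above 0, and 81 lay outside the counting interval of the reported value, which is narrow. The exception in direction was Gbp8, at −0.068 once the GC trend was taken out. The number of members at least 2-fold higher, 8 of 10, was 10 with pseudocounts of 0.1 and 0.01, where 7.9% and 18.9% of all genes were, 9 by CPM, TMM-scaled and DESeq2-scaled CPM (all genes 2.45%, 1.5% and 1.41%), and 7 with the GC trend removed (all genes 0.946%). At thresholds of 1.5-fold and 4-fold it was 9 and 6, against 6.46% and 0.295% of all genes. Leaving out the members whose exons overlap another gene, chosen after seeing the data, left 3 of 4. The median log2 ratio of the members, 2.32, was 3.27 and 3.51 with pseudocounts of 0.1 and 0.01, 3.47 without a pseudocount, 2.65 over members with a mean FPKM of at least 1, 2.19 centred on the median gene, 3.20 by CPM, 3.01 by TMM-scaled CPM, 2.98 by DESeq2-scaled CPM, 1.97 with the GC trend and 2.16 with the exon length trend removed, 2.45 without members sharing over 20% of their words, and 2.45 without overlapping members. The log2 ratio of the summed family, 2.86, was 2.74 centred, 2.95 by CPM, 2.75 by TMM-scaled CPM, 2.72 by DESeq2-scaled CPM, 2.61 with the GC trend and 2.81 with the exon length trend removed, 2.82 without members sharing words, 2.79 without overlapping members, and 3.29 without Gbp2, a choice also made after seeing the data. The filter at a mean FPKM of 1 drops Gbp4, Gbp8 and Gbp11, which had the lowest log2 ratios with the added 1. Gbp5, Gbp7 and Gbp10 pass it only through their level in the OE-labelled library. The median of 2.65 is thus partly fixed by this filter and is not read as support. Depth limited Gbp4, Gbp8 and Gbp11, which had 6, 0 and 0 counts in the control-labelled library. No paired analysis was possible because each condition had 1 library, and for the same reason no library could be left out.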

Other observations

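Over all genes with a RefSeq promoter and a mean FPKM of at least 1, the response element core found in the promoters of Gbp2, Gbp3, Gbp5 and Gbp7 was present in 315. At least 2-fold higher in the OE-labelled library were 66 of them (20.95%), with a median log2 ratio of 0.32. Of the 7913 genes without it, 167 (2.11%) were at least 2-fold higher, with a median of 0.13. The GBP genes are part of the first count, and most genes that hold the motif were within 2-fold.

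For each of the 3 most abundant members, the genes nearest in log2 ratio were listed. Nearest to Gbp3 (3.14) were Iigp1 (3.14), Phf11a (3.02) and Gm12250 (3.02). Mndal (2.90), Gm20716 (2.95) and Oas1b (2.95) stood nearest to Gbp6 (2.92). Ifi208 (2.64), Ddit3 (2.66) and Gm2619 (2.68) stood nearest to Gbp2 (2.65). Ddit3 encodes a transcription factor of the endoplasmic reticulum stress response. With 2 libraries, likeness is the difference of a single ratio, and many genes can share a ratio.

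Of the 4798 genes at 0 counts in the control-labelled library, 25 had over 50 in the OE-labelled library, and Gbp8 and Gbp11 were 2 of them. Both cuts use the values that are compared, and Gbp8, at 51 counts, only just passed the second. Their place among the 25 restates their counts and is no support for a difference. Abcg3, which lies beside the chromosome 5 cluster, was at 26 counts against 0. It was chosen after its values were seen.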
